A study of Mus musculus with 4 samples.

Results

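Klrc1, Klrd1, Klrk1, Klrb1b, Klrb1c and Klrg1 are 6 genes of the killer cell lectin-like receptors, surface proteins best known from natural killer cells, and they are described here in CD4+ T cells from 2 tissues, brain and spleen. The 6 genes were picked from 33696 genes in the tables because earlier values from the same libraries showed them to vary between tissues, with the invariant alpha chain, with helper state and with clone size, and showed Klrc1 and Klrd1 in the same cells. Those patterns are therefore a description of how the genes were chosen and carry no test. In the tables the genes have the identifiers ENSMUSG00000030167 (Klrc1), ENSMUSG00000030165 (Klrd1), ENSMUSG00000030149 (Klrk1), ENSMUSG00000079298 (Klrb1b), ENSMUSG00000030325 (Klrb1c) and ENSMUSG00000030114 (Klrg1).

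The cells came from wild-type (WT) C57BL/6 mice with experimental autoimmune encephalomyelitis (EAE), an inflammation of the central nervous system caused by immunization, on day 60. Both tissues carry the same genotype and treatment, and no unimmunized mice are among the samples. The sort took CD4+ CD44+ GITR- cells, CD44 being a marker of antigen experience and GITR a protein that is high on regulatory T cells. Each tissue gave 1 RNA library and 1 library of T cell receptor (TCR) sequences, and the sources used here do not give the number of animals pooled, their sex or their age. With 1 library per tissue there is no test of any difference, and all intervals are exact 95% intervals that cover counting error only. A difference between brain and spleen cannot be told apart from a difference between the 2 libraries.

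After filtering, 3935 brain cells and 7989 spleen cells were kept, with medians of 9840 and 7190 unique molecular identifiers (UMIs, the count of captured RNA molecules). At least 1 UMI of any of the 6 genes was found in 1201 brain cells and 1661 spleen cells. Cd4, the sorted co-receptor, had a UMI in 86.2% of brain and 81.6% of spleen cells. Both libraries share 31 barcodes, of which 15 were kept in both. A productive TCR alpha chain (TRA) was read in 3207 brain and 6877 spleen cells, and cells without one were shallower, with medians of 5900 and 3930 UMIs.

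Klrc1 encodes NKG2A, which pairs with CD94, the product of Klrd1, and the pair inhibits the cell when it binds the nonclassical MHC molecule Qa-1. Klrk1 encodes NKG2D, an activating receptor for stress-induced ligands that signals through the adaptors DAP10 (Hcst) and DAP12 (Tyrobp). Klrb1b encodes NKR-P1B, an inhibitory receptor, Klrb1c encodes NK1.1, the antigen by which natural killer and NKT cells of C57BL/6 mice are recognized, and Klrg1 encodes an inhibitory receptor for cadherins found on differentiated effector cells. Invariant NKT cells carry an alpha chain of TRAV11 joined to TRAJ18, see lipids on CD1d and often carry receptors of this family.

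Of the 6 genes, 5 lie in the natural killer gene complex on chromosome 6. In the RefSeq gene order of GRCm38.p6, used for neighbours only, Klrb1c and Klrb1b are adjacent, as are Klrd1 and Klrk1. Klrc3 and Klrc2 stand between Klrk1 and Klrc1, and the stretch from Klrb1c to Klrc1 holds 26 protein-coding genes. Klrg1 lies apart, 112 genes from Klrb1c and between Mug2 and M6pr. RefSeq promoter sequences of GRCm38.p6 were matched for 4 of the 6 genes and are shown because the genes of the complex were found together in cells, as described further on. Klrd1 and Klrg1 are named only. Each run is the 250 bases before the annotated start, read 5′ to 3′ on the gene's strand, and capitals mark a match to the Runx motif TGTGGT or its reverse complement ACCACA.
Klrc1 chr6:129678974-129679223, minus strand: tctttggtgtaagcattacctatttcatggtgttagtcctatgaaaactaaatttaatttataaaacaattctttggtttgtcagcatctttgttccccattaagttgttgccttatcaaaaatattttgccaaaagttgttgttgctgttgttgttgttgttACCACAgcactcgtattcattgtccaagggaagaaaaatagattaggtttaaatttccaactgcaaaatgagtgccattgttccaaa
Klrk1 chr6:129623865-129624114, minus strand: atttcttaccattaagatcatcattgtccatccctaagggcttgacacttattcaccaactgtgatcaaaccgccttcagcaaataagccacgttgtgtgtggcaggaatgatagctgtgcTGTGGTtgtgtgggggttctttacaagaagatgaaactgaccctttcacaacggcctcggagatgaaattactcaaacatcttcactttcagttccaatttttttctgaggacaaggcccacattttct
Klrb1c chr6:128788642-128788891, minus strand: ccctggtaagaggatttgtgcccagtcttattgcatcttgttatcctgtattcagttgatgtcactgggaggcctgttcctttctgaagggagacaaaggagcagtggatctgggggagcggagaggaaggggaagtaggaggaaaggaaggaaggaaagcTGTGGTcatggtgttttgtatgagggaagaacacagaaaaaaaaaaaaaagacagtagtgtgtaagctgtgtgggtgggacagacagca
Klrb1b chr6:128826316-128826565, minus strand: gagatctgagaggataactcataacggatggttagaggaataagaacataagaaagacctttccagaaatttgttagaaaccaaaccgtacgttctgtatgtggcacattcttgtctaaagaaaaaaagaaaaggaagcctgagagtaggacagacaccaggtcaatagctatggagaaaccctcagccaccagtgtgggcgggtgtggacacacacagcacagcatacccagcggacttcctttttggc
Klrc1, Klrk1 and Klrb1c each held a Runx match, which began 87, 129 and 89 bases before the start, and Klrb1b held none. The motif was present in 14.0% of 32851 promoter windows of this length. AGGTGT, a T-box motif searched on both strands as AGGTGT and ACACCT, was in none of these windows and in 11.8% of all of them. A match describes letters only, and the absence of one covers only this window.

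In the brain Klrc1 and Klrb1b were higher and Klrb1c was lower than in the spleen, while Klrd1, Klrk1 and Klrg1 did not reach the threshold for a difference. The threshold was a ratio of at least 1.5 with an interval that excludes 1, for genes of at least 10 CPM (UMI counts scaled to a fixed total per group) in the higher group. Over all 8638 genes measured this way, 9.81% were higher in the brain and 8.67% were lower. The choice of the genes used this contrast, so that nothing is read from their count of 2 higher and 1 lower.

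Klrc1 had 54.2 CPM in the brain (51.9 to 56.5, from 2221 UMIs) and 27.5 CPM in the spleen (26.2 to 28.9, from 1662 UMIs), a ratio of 1.97 (1.85 to 2.10). A Klrc1 UMI was found in 583 brain cells, or 14.8% (13.7 to 16), and in 464 spleen cells, or 5.81%. When every cell was thinned to 4000 UMIs, which leaves out 346 brain and 837 spleen cells of lower depth, the shares were 10.1% and 4.60%. The difference was therefore present at equal depth.

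Klrb1b showed the widest gap of the 6, with 14.7 CPM in the brain against 2.04 CPM in the spleen, a ratio of 7.21 (5.93 to 8.83). It was found in 172 brain cells (4.37%, or 3.26% thinned) and in 40 spleen cells (0.501%, or 0.447% thinned). The spleen cells with Klrb1b were not spread evenly, as a UMI was found in 2.57% of cells with the invariant alpha chain described further on (1.51 to 4.09) and in 0.290% of cells with another one (0.172 to 0.457).

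Free RNA in the droplets can place a UMI in a cell that does not express the gene, and 2 kinds of spleen cells serve as a comparison. In the larger naive-like cluster of 1308 cells, with a median of 7384 UMIs, Klrc1 was in 0 cells, Klrk1 in 0.229%, and Klrb1b, Klrb1c and Klrg1 in 0.0765% each. Among 168 barcodes with B cell markers, with a median of 5475 UMIs, Klrc1, Klrd1, Klrk1 and Klrb1c were in 2.38% each (4 cells, 0.652 to 5.98) and Klrb1b and Klrg1 in 0.595% each (1 cell, 0.0151 to 3.27). The B-like barcodes are too few to set a level, and the naive-like cells were below every spleen share given for these 5 genes. The naive-like shares rest on few positive cells. The low spleen share of Klrb1b in cells with another alpha chain is therefore not shown to lie above them. Klrd1 was present in naive-like cells and has no such comparison.

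Klrb1c went the other way, with 6.37 CPM in the brain (73 cells, 1.86%) and 37.5 CPM in the spleen (627 cells, 7.85%), a ratio of 0.170 (0.149 to 0.193). Thinned shares were 1.37% and 6.70%. NK1.1 transcript was thus carried mainly by spleen cells.

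Klrd1, the CD94 chain, had 55.1 CPM in the brain and 38.4 CPM in the spleen (662 cells, 16.8%, and 977 cells, 12.2%), a ratio of 1.43 (1.35 to 1.52). For Klrk1 the levels were 50.8 and 36.5 CPM (529 cells, 13.4%, and 605 cells, 7.57%), a ratio of 1.39 (1.31 to 1.48). Klrg1 had 12.8 and 11.4 CPM, a ratio of 1.12 (1.0 to 1.26), in 160 brain cells (4.07%) and 171 spleen cells (2.14%). These 3 ratios were all above 1 and under the threshold of 1.5, Klrd1 and Klrk1 just inside that limit. Counts are whole cells pooled per tissue, so that fewer positive cells and less RNA per cell are not separated by CPM alone, and for that reason the share is given beside each level.

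**Figure D1:**
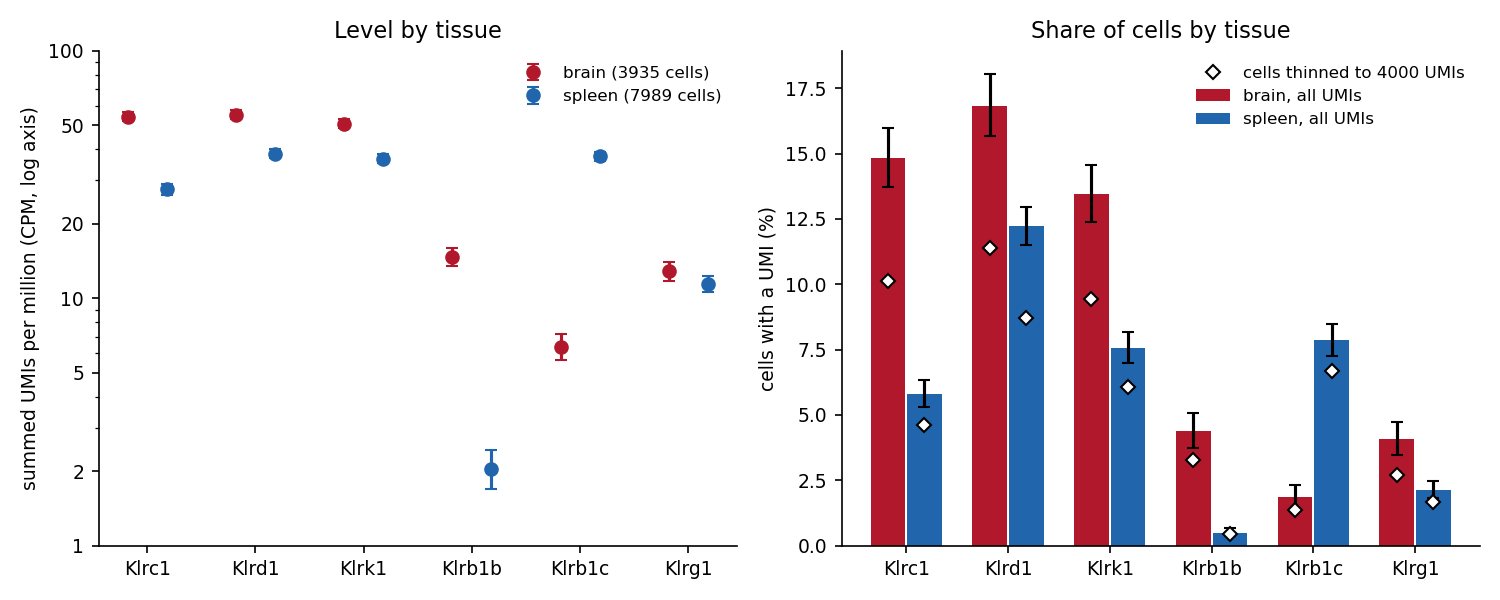
Level (CPM, log axis) and share of cells with a UMI (percent) of the 6 genes in the brain and spleen libraries, with exact 95% intervals that cover counting error and diamonds for cells thinned to 4000 UMIs. Klrc1 and Klrb1b stand higher in the brain (54.2 against 27.5 and 14.7 against 2.04 CPM), and Klrb1c stands higher in the spleen (37.5 against 6.37 CPM).

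The rest of the family was mostly scarce. Of 27 family genes in the tables, the 6 described reached 10 CPM in a tissue and were the ones the threshold could call. Of the 21 others, 10 reached 1 CPM in a tissue and 11 did not, Klra2 being at 0 in both. Klre1, whose product pairs with those of the Klri genes, had 7.44 CPM in the brain and 3.86 in the spleen, and Klri2 had 8.24 and 1.19 CPM. Klrc2, which encodes the activating NKG2C, had 9.29 and 8.69 CPM, and Klrb1f had 8.07 and 8.16 CPM. Klrh1 had 53 UMIs (1.29 CPM) in the brain and 0 in the spleen, where 3 UMIs would be 0.0497 CPM, so that it was at least 26.0-fold higher in the brain against that floor. The exact interval used for the other ratios has a lower limit of 20.4. Among the Ly49 genes, which encode MHC class I receptors, levels ran from 1.07 and 0.149 CPM (Klra5) over 1.15 and 0.629 (Klra7), 2.0 and 1.57 (Klra1) and 2.10 and 1.56 (Klra3) to 2.44 and 0.712 (Klra9). Without the invariant cells described further on, the order turned for Klra7 (0.151 and 0.599 CPM) and Klrb1f (7.41 and 5.22 CPM). Klrc1, Klrc2 and Klrc3, and likewise the Klrb1 and the Klra genes, are close copies of each other, and the sources used here do not give how shared reads were divided among them.

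The signalling partners and ligands of these receptors are given beside the shares over all genes, 9.81% higher and 8.67% lower in the brain. Of 10 measured adaptors and phosphatases, Inpp5d, the phosphatase SHIP-1, was higher in the brain (210 against 133 CPM), Ptpn6, the phosphatase SHP-1, was lower (88.5 against 148 CPM), and 8 were neither. Hcst had 497 and 351 CPM, and Tyrobp had 2.37 and 1.89 CPM. Of 8 measured ligand genes, Raet1e, a ligand of NKG2D, was higher in the brain (34.3 against 16.3 CPM) and Clec2d, which encodes a ligand of NKR-P1B, was lower (158 against 318 CPM). H2-T23, which encodes Qa-1, had 522 and 468 CPM and passed in neither direction. With 1 gene higher and 1 lower in each list, the counts are near those shares and are no result about these genes.

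The TCR libraries marked 123 brain cells and 661 spleen cells with a TRAV11-TRAJ18 alpha chain, 3.84% and 9.61% of cells with a TRA chain. The most frequent alpha CDR3 sequences are shown because they define the cells compared next. The capital marks the base at which they differ, and all 3 encode the same residues.
Invariant alpha CDR3 with C: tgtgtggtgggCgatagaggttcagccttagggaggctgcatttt
Invariant alpha CDR3 with G: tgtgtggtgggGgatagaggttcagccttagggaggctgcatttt
Invariant alpha CDR3 with A: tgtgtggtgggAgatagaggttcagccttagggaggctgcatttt
The form with C was carried by 46 of 123 brain cells (37.4%) and 252 of 661 spleen cells (38.1%). The form with G was in 31 (25.2%) and 186 (28.1%), and the form with A in 16 (13.0%) and 96 (14.5%). Brain and spleen held 17 and 23 different sequences in all, and the shares of these 3 were close in both tissues.

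Against cells with another alpha chain, the invariant cells had more Klrc1, Klrd1, Klrk1 and Klrb1c in both tissues. The rule chose the genes on this contrast too, and over all genes 8.32% were higher and 9.91% lower in the brain (8549 genes), and 13.2% higher and 8.55% lower in the spleen (8740 genes). Klrc1 had 166 CPM in invariant and 48.3 CPM in other brain cells, 3.45-fold (2.98 to 3.97), and 177 against 10.8 CPM in the spleen, 16.4-fold. For Klrd1 the levels were 123 against 52.1 CPM (2.36-fold) and 157 against 26.3 CPM (5.97-fold). Klrk1 had 219 against 45.3 CPM (4.83-fold) and 223 against 17 CPM (13.1-fold). For all 3 genes the invariant cells of both tissues were near one another, and the other cells were higher in the brain.

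Klrb1c was the most uneven of the 6 between the chains. It had 135 CPM in invariant brain cells against 2.14 CPM in the others (62.9-fold, 47.5 to 84.2), and 355 against 4.65 CPM in the spleen (76.4-fold). A Klrb1c UMI was found in 35.0% of invariant brain cells and 70.5% of invariant spleen cells, or 25.6% and 58.9% when thinned. In cells with another alpha chain the shares were 0.713% and 1.67%. The spleen value was above the share in naive-like cells and inside the interval of the B-like barcodes.

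Klrb1b and Klrg1 did not follow the other 4 genes. Klrb1b had 12.2 CPM in invariant and 13.8 CPM in other brain cells, a ratio of 0.883, whereas in the spleen it had 11.0 CPM (58 UMIs in 17 cells) against 0.748 CPM, 14.7-fold. With only cells of 1 TRA chain that ratio was 10.7, and Klrb1b no longer passed the threshold. Klrg1 was higher in invariant brain cells, at 22 against 12.4 CPM (1.77-fold, 1.17 to 2.59), on 29 UMIs in 8 cells of 7 clones. In the spleen it was lower, at 3.03 against 12.7 CPM, a ratio of 0.239 (0.136 to 0.390). The brain value of Klrg1 rests on few cells and no longer passed the threshold when cells were thinned or when only cells with 1 TRA chain were used.

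**Figure D2:**
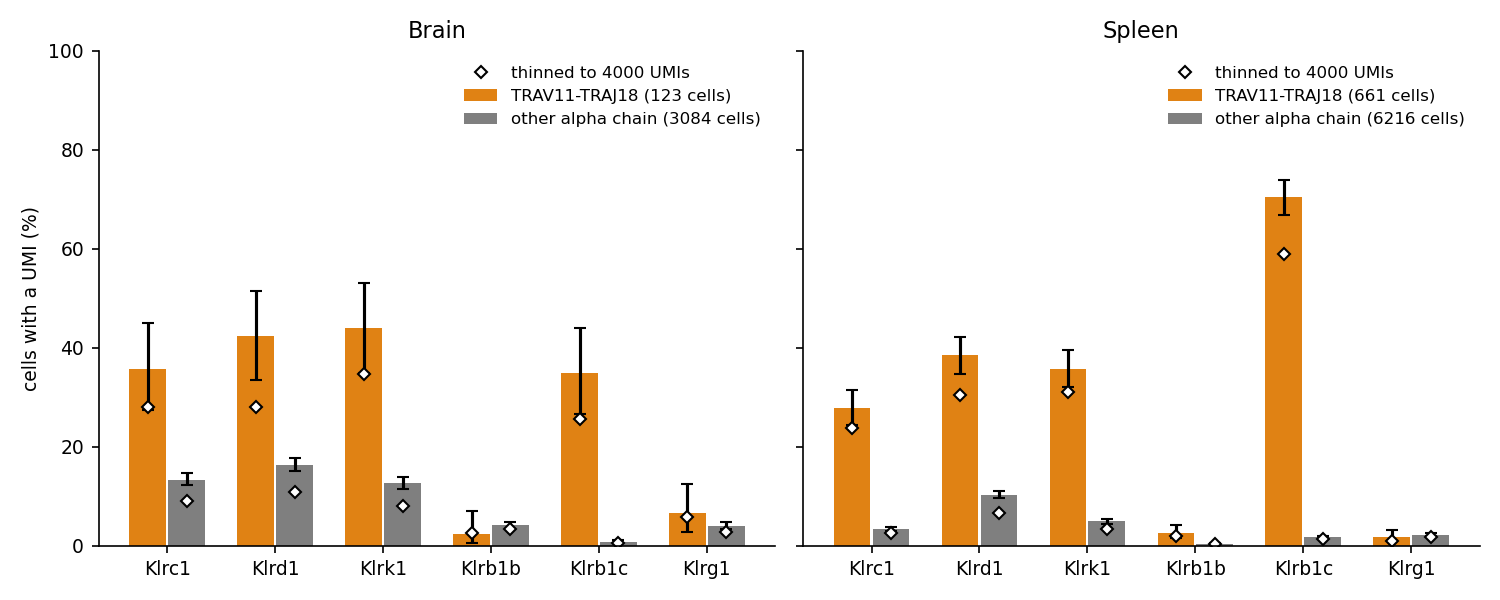
Share of cells with a UMI (percent, with exact 95% intervals) of the 6 genes in cells with a TRAV11-TRAJ18 alpha chain (123 brain, 661 spleen) and cells with another alpha chain, with diamonds for cells thinned to 4000 UMIs. Klrb1c was found in 35.0% of invariant brain and 70.5% of invariant spleen cells, and in 0.713% and 1.67% of the others.

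Set against invariant spleen cells, invariant brain cells had 7.07% of 8622 genes higher and 14.3% lower. Klrb1c was lower in the brain, with a ratio of 0.379, and Klrg1 was 7.27-fold higher. Klrc1 (0.940), Klrd1 (0.785), Klrk1 (0.980) and Klrb1b (1.11) were within the threshold. The invariant cells of both tissues thus passed the threshold in Klrb1c and Klrg1, in opposite directions, and the Klrg1 value again rests on 8 brain cells.

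Of the 21 family genes outside the 6, 8 in the brain and 4 in the spleen reached 10 CPM in invariant cells or in cells with another alpha chain. They reached it through the invariant cells alone and so had to be higher there, and their count supports nothing. Klre1 was 12.2-fold higher in the brain and 23.1-fold in the spleen, Klrc2 8.04-fold and 30.3-fold, and Klrb1f 3.79-fold and 7.63-fold. Hcst, the adaptor DAP10, had 521 against 501 CPM in the brain and 553 against 337 CPM in the spleen (1.64-fold), and Tyrobp, the adaptor DAP12, had 3.80 against 2.57 CPM and 3.60 against 0.546 CPM.

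Because the spleen held more invariant cells, the tissue difference was also taken without them, where 10.6% of 8621 genes were higher in the brain and 8.86% were lower. Klrc1 was then 3.83-fold higher in the brain (50.5 against 13.2 CPM), Klrk1 2.42-fold (45.2 against 18.7 CPM), Klrd1 1.95-fold (52.8 against 27.0 CPM) and Klrb1b 12.5-fold (14.8 against 1.18 CPM). Klrb1c had 2.12 and 7.04 CPM and was under the minimum level, and Klrg1 had 12.5 and 12.2 CPM, a ratio of 1.02. Without invariant cells, 4 of the 6 genes were therefore higher in the brain and 0 in the spleen. These cells include 728 of the brain and 1112 of the spleen with no TRA read. Among cells with another alpha chain only, an alternative added after seeing the data, the ratios were 4.47 for Klrc1, 2.66 for Klrk1, 1.98 for Klrd1 and 18.4 for Klrb1b.

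The share of positive cells that were invariant shows the same from the other side. In the spleen, 39.7% of Klrc1 cells, 39.0% of Klrk1 cells, 26.0% of Klrd1 cells and 74.3% of Klrb1c cells carried the invariant chain. In the brain these were 7.55%, 10.2%, 7.85% and 58.9%. Of the Klrg1 cells 5.0% in the brain and 7.02% in the spleen were invariant. Among all kept cells 123 of 3935 in the brain and 661 of 7989 in the spleen were invariant.

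Klrd1 was found with Klrc1 more often than without it. This co-detection was among the values that chose the genes, and its shares are a description. The pair encodes the chains of one receptor. In the brain a Klrd1 UMI was present in 342 of 583 Klrc1 cells, 58.7% (54.5 to 62.7), and in 9.55% of cells without Klrc1. In the spleen it was present in 265 of 464 Klrc1 cells, 57.1%, against 9.46%. Thinned to equal depth the shares were 51.5% against 6.88% and 50.5% against 6.71%. The share in Klrc1 cells was nearly the same in both tissues, although Klrc1 cells were much more frequent in the brain.

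The pairing did not rest on the invariant cells. Without them, 57.7% of brain and 51.8% of spleen Klrc1 cells had a Klrd1 UMI. Within the invariant cells it was 70.5% against 26.6% in the brain and 65.2% against 28.1% in the spleen. Cells with both transcripts had a median of 4 Klrc1 and 3 Klrd1 UMIs in the brain and 3 and 2 in the spleen, so that a missing partner at these counts can be a missed molecule.

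Klrc1 without Klrd1 was seen in 241 brain and 199 spleen cells, and Klrd1 without Klrc1 in 320 and 712 cells. Part of the Klrd1-only cells lay in naive-like clusters. Klrc1 had no UMI in those clusters, so that cells with both transcripts could not lie there. In clusters with naive or central memory markers lay 63 of the 320 brain cells (19.7%, 15.5 to 24.5) and 321 of the 712 spleen cells (45.1%, 41.4 to 48.8), against 0 of 342 and 0 of 265 cells with both transcripts. Ccr7, a homing receptor of naive and central memory cells, had a UMI in 30.3% of Klrd1-only and 7.89% of double-positive brain cells, and in 61.4% and 9.81% in the spleen. Cells with neither gene had a Ccr7 UMI in 24.8% and 61.2% and lay in naive-like clusters in 8.81% and 28.4%, so that in the spleen the Ccr7 share of Klrd1-only cells was near that of cells with neither. Only 1 Klrd1 UMI was present in 51.3% of the Klrd1-only brain cells and 60.8% of those of the spleen, against 25.4% and 29.8% of the double-positive cells.

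The other genes were also found together with Klrc1. Klrk1 had a UMI in 47.2% of Klrc1 cells and 7.58% of the rest in the brain, and in 63.6% against 4.12% in the spleen. Klrb1b was in 18.9% against 1.85% of brain cells, and Klrb1c in 47.0% against 5.44% of spleen cells but in 6.00% against 1.13% of brain cells. For Klrg1 the shares were 7.89% against 3.40% in the brain and 13.1% against 1.46% in the spleen, or 20.7% against 1.43% in the spleen without invariant cells. Klrc1 cells thus had Klrb1c more often in the spleen than in the brain. Of the Klrc1 cells, 39.7% were invariant in the spleen and 7.55% in the brain. The part of the invariant cells in this difference was not tested. Klrb1b was in 40 spleen cells in all, against 464 with Klrc1, so that its share there was under that of the brain.

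Klrb1b and Klrb1c are neighbours that encode an inhibitory and an activating receptor of one family. They shared 7 brain cells, 4.07% of the Klrb1b cells and 9.59% of the Klrb1c cells. In the spleen they shared 19 cells, 47.5% of the 40 Klrb1b cells and 3.03% of the Klrb1c cells. Counting genes per cell, 614 brain cells (15.6%) had 1 of the 6 genes, 296 (7.52%) had 2, 200 (5.08%) had 3 and 83 (2.11%) had 4. In the spleen 978 cells (12.2%) had 1, 304 (3.81%) had 2 and 229 (2.87%) had 3. None of the 6 was found in 69.5% of brain and 79.2% of spleen cells, but in only 29.3% and 21.0% of invariant cells.

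Helper state was read from clusters that were made within each tissue without the family genes, 14 in the brain and 16 in the spleen, and named from marker lists. The 6 genes sat in different clusters. In the brain Klrc1 was highest in 2 unnamed clusters and in the NKT-like and cytotoxic-like ones. The unnamed cluster of 138 cells led by Ccl3, Ccl4 and Rgs16 had 232 CPM (50% of cells), and that of 575 cells led by Ifitm1, Ifitm2, Lgals3 and Gzma had 152 CPM (44.3%). In the 138-cell cluster Ccl3 itself had a UMI in 4 of 69 cells with Klrc1 and in 16 of 69 without. One of the latter held 352 of their 531 UMIs. NKT-like cells had 201 CPM (37.0%) and cytotoxic-like cells 195 CPM (44.4%). The Th1-like cluster, the largest of the brain with 626 cells, had 12.6 CPM (4.79%), and the naive-like cluster of 330 cells had 0 UMIs, which allows a share of up to 0.909%. The 575-cell cluster held 45.2% of all brain Klrc1 UMIs in 14.6% of the cells, a share that moved with the clustering resolution.

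In the spleen Klrc1 had 265 CPM in cytotoxic-like cells (52.2%), 179 CPM in NKT-like cells (28.2%) and 66.1 CPM in Th17-like cells (24.7%). It had 0.980 CPM in regulatory-like cells and 0 UMIs in both naive-like clusters. NKT-like cells held 64.3% of the spleen Klrc1 UMIs in 9.41% of the cells. An unnamed cluster of 64 cells led by Zbtb16, with a low median of 2584 UMIs, had 336 CPM (37.5%). The cluster with the largest part of the Klrc1 UMIs was thus an unnamed one in the brain and the NKT-like one in the spleen. NKT-like cells of the brain also had a high level, as given above, and were a smaller part of the cells, 4.12% against 9.41%.

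Klrd1 was highest in cytotoxic-like cells, at 353 CPM (71.1%) in the brain and 505 CPM (76.7%) in the spleen. Unlike Klrc1 it was also present in naive-like cells, at 29.6 CPM (19.1%) in the brain and 23.9 CPM (13.1%) and 33.3 CPM (15.8%) in the 2 naive-like clusters of the spleen. Spleen regulatory-like cells had 0.327 CPM.

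Klrk1 had 255 CPM in NKT-like cells of the brain and 223 CPM in those of the spleen, 167 and 354 CPM in cytotoxic-like cells, and 121 CPM in the 575-cell brain cluster. Both Th17-like brain clusters carried it, at 51.3 CPM (25.3% of 281 cells) and 26.6 CPM (13.2% of 363 cells), and Th17-like spleen cells had 109 CPM (36.3%). Naive-like cells of the brain had 0.598 CPM.

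Klrb1b was mostly a transcript of the 575-cell brain cluster, at 51.0 CPM (16.2%), with 33.2 CPM in the 138-cell cluster and 28.3 CPM (10.2%) in one Th17-like cluster. The other Th17-like cluster had 0 UMIs. The NKT-like cluster held 92.3% of the Klrb1c UMIs of the brain and 92.6% of those of the spleen, at 148 and 351 CPM. Klrg1 was at 423 CPM (84.4%) in the 45 cytotoxic-like brain cells and at 592 CPM (80.0%) in the 90 spleen ones, which held 36.7% and 43.3% of its UMIs in 1.14% and 1.13% of the cells. Regulatory-like cells came next, at 36.7 CPM (5.49%) and 38.6 CPM (3.80%).

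**Figure D3:**
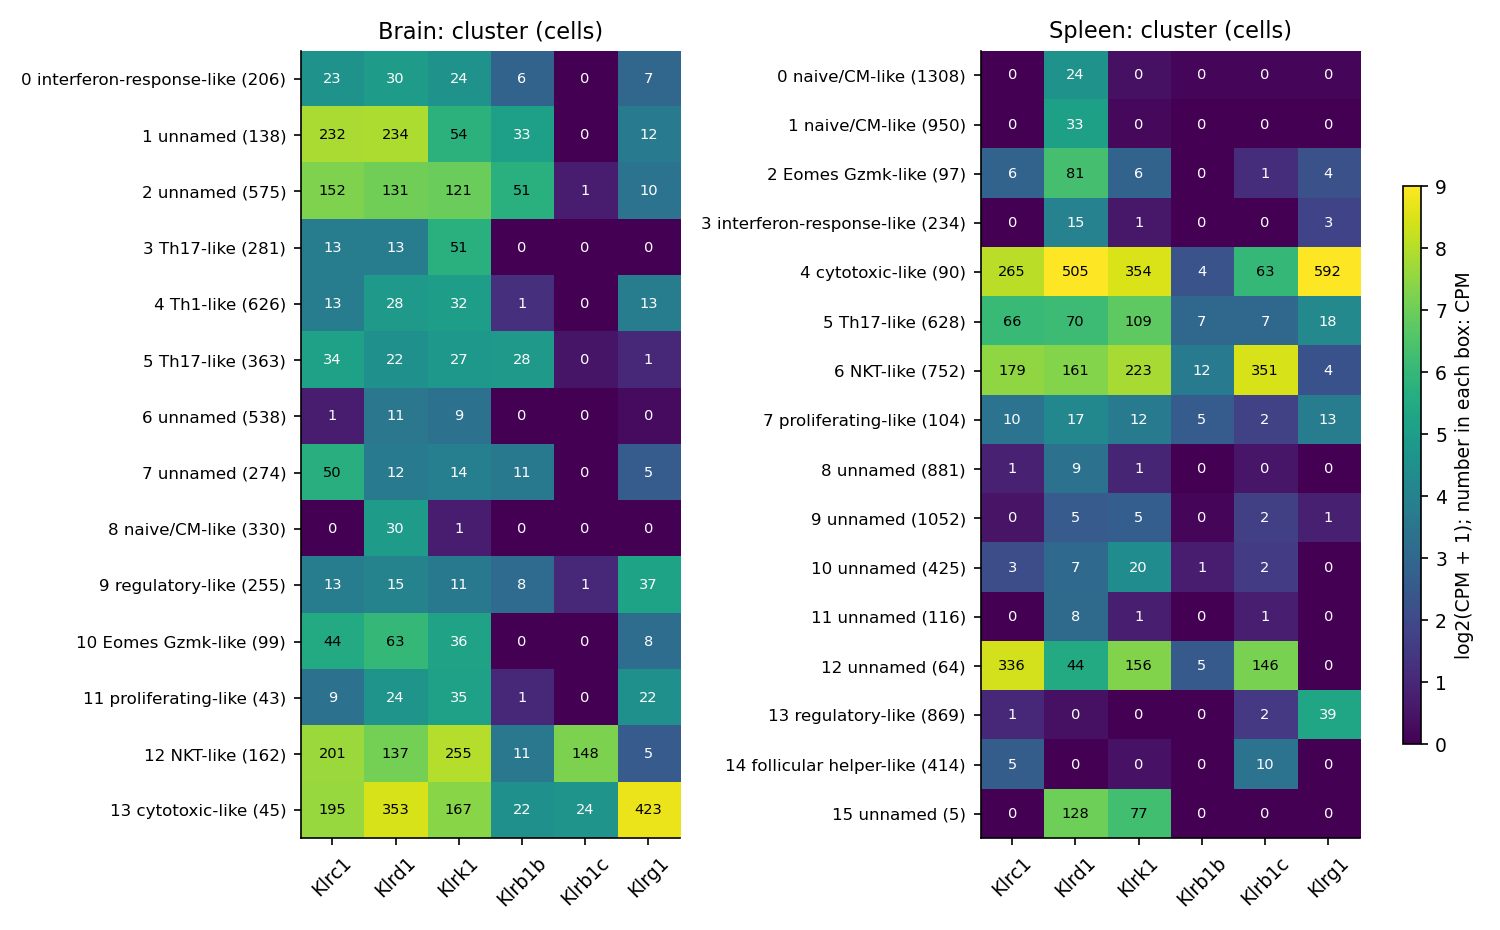
Level of the 6 genes (CPM as the number in each box, colour as log2(CPM + 1)) in each cluster of the brain and the spleen, with its number of cells in brackets. Klrb1c is high in the NKT-like clusters (148 and 351 CPM), Klrg1 in the cytotoxic-like clusters (423 and 592 CPM), and Klrc1 in several clusters of the brain.

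Sorting cells by their own cytokine transcripts, invariant cells apart, gave a second view of helper state. In the brain Klrc1 had 85.5 CPM (22.5%, or 15.7% thinned) in 1480 cells with Ifng and no Il17a, and 7.36 CPM (6.72%) in 253 cells with Il17a and no Ifng. In the 97 cells with both it had 32.4 CPM (18.6%, or 8.51% thinned), in 263 cells with Foxp3 26.6 CPM (7.22%), and in 1719 cells with none of these 28.7 CPM (8.84%). By these classes Klrc1 was thus higher in brain cells with Ifng alone than in those with Il17a alone. By cluster, Th1-like cells of the brain were low in Klrc1, and Th17-like cells of the spleen carried it. The latter are of the other tissue and give no order for the brain. In the spleen the values were 59.9 CPM (17.5%) in 418 cells with Ifng alone, 0.732 CPM (0.316%) in 948 cells with Foxp3 and 11.5 CPM (3.41%) in 5952 cells with none.

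Klrd1 had 92.7 CPM in brain cells with Ifng alone and 4.02 CPM in those with Il17a alone. Klrb1b had 21.8 CPM with Ifng alone, 22.3 CPM with both and 2.34 CPM with Il17a alone. Klrk1 was less uneven, at 71.1 CPM (16.6%) with Ifng alone and 21.8 CPM (12.6%) with Il17a alone. Klrg1 was highest with Foxp3 in the brain, at 39.4 CPM against 19.5 CPM with Ifng alone, and highest with Ifng alone in the spleen, at 80.3 CPM against 36.4 CPM with Foxp3. In the 253 brain cells with Il17a alone, Klrg1 had 0 UMIs, which allows a share of up to 1.19%.

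Cells with the same V genes and the same CDR3 nucleotides in alpha and beta chain counted as a clone, and invariant cells were left out. In the brain the share of Klrc1 cells was 7.54% among 1723 clones of 1 cell, 18.8% in clones of 2 to 4 cells, 24.1% in clones of 5 to 19 and 20.1% in the 7 clones of at least 20. In the spleen it was 2.08%, 8.78%, 12.4% and 50%, the last being 1 clone of 60 cells. Klrd1 ran from 13.0% in clones of 1 cell to 22.3% in the largest brain clones, and Klrk1 from 9.58% to 13.6% with a peak of 18.5% in clones of 5 to 19. Klrb1b had a larger share at each larger size in the brain (1.97%, 5.62%, 7.35%, 8.42%), as did Klrg1 (2.15%, 3.80%, 5.35%, 14.3%). Klrb1c stayed under 2% at every clone size of the brain.

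Cells of clones of at least 5 cells were set against cells of clones of 1. In the brain 5.46% of 8401 genes were higher and 3.58% lower in the expanded cells, and in the spleen 15.5% of 8761 were higher and 5.62% lower. The choice of the genes used clone size, and the ratios are given as a description. Klrc1 was 3.26-fold higher in the brain (84.8 against 26.0 CPM), Klrd1 2.77-fold, Klrk1 1.56-fold, Klrb1b 4.30-fold and Klrg1 2.48-fold. In the spleen Klrc1 was 11.0-fold higher (76.6 against 6.99 CPM), Klrd1 3.85-fold, Klrk1 11.4-fold, Klrg1 13.2-fold and Klrb1c 2.56-fold. One spleen clone carries a large part of this. Without the largest clone, the ratio of Klrc1 in the spleen was 5.56 (3.94 to 7.68), that of Klrg1 5.84, that of Klrk1 8.43 and that of Klrd1 3.26, and Klrb1c was no longer measured, while the brain ratios were 3.59, 2.41, 1.72 and 2.97.

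**Figure D4:**
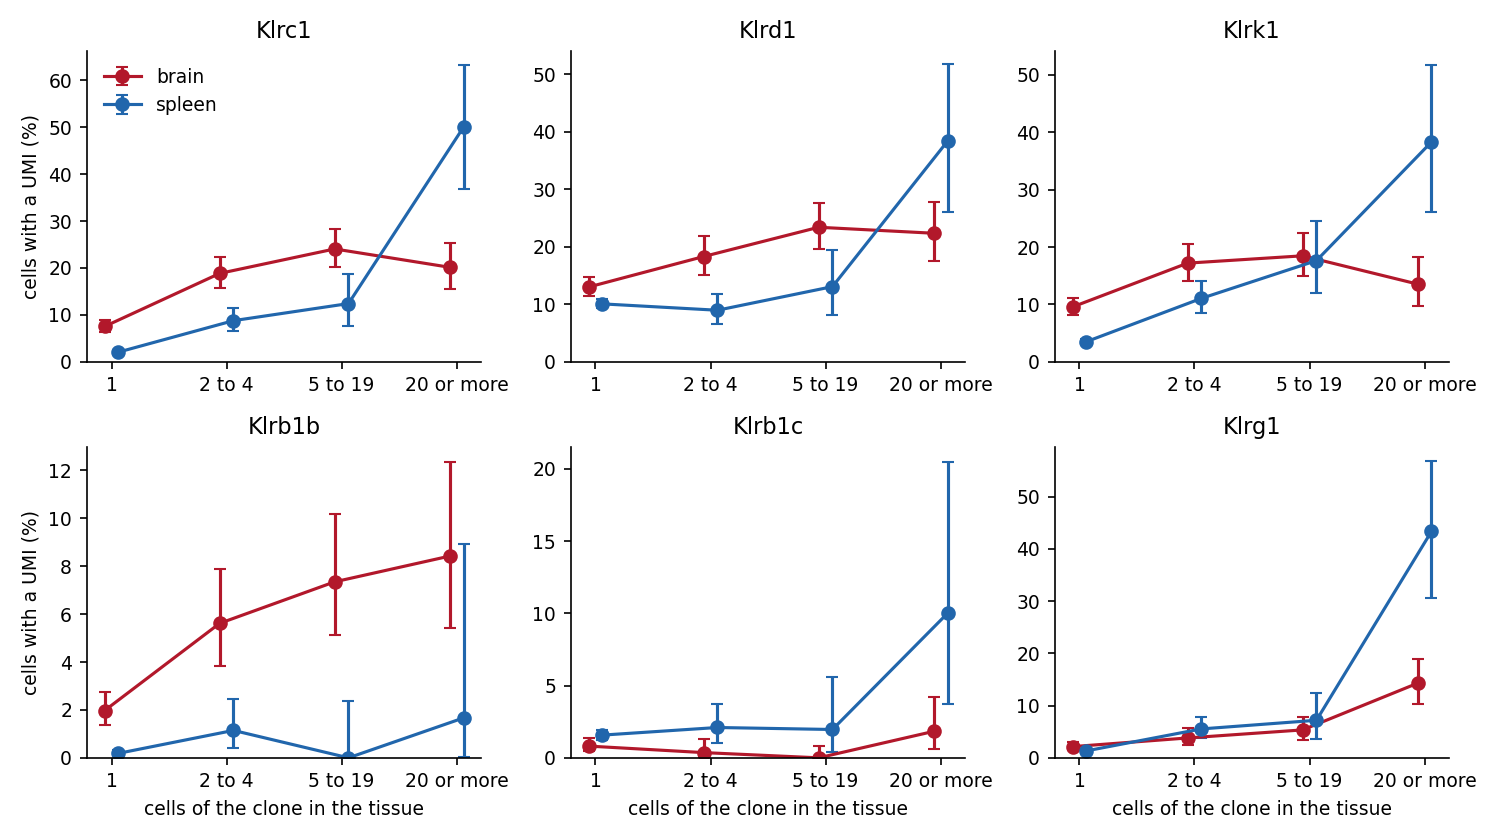
Share of cells with a UMI (percent, with exact 95% intervals) of the 6 genes by clone size in the brain and the spleen, invariant cells left out. Klrc1 was found in 7.54% of brain cells from clones of 1 cell and 24.1% of those from clones of 5 to 19, and the spleen point at 20 or more cells is a single clone.

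The Klrc1 cells of the brain were spread over many clones. The 397 Klrc1 cells with a clone belonged to 229 clones, the largest giving 18 cells (4.53%), and the 206 of the spleen belonged to 154 clones, the largest giving 30 (14.6%). For Klrg1 the largest spleen clone gave 26 of 137 cells (19%).

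Single clones differed widely. Receptor sequences of a pair of them are shown, as one was large in both tissues and the other had the highest Klrc1 share among the 7 large brain clones. CDR3 nucleotides are given in lower case.
TRAV7-5 clone TRA: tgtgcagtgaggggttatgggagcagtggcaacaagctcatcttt
TRAV7-5 clone TRB: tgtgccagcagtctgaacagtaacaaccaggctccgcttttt
TRAV8D-1 clone TRA: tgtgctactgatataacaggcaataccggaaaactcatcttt
TRAV8D-1 clone TRB: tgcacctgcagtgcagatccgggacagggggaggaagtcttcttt
The first clone, TRAV7-5 with TRAJ32 and TRBV26 with TRBJ1-5, had 57 cells in the brain and 60 in the spleen and was the only spleen clone of that size. Its Klrc1 share was 24.6% in the brain and 50% in the spleen, its Klrd1 share 19.3% and 38.3%, its Klrk1 share 24.6% and 38.3%, and its Klrg1 share 28.1% and 43.3%. All 4 genes were thus found in more of its spleen cells than of its brain cells, against the order in all cells. The exact intervals of brain and spleen overlapped for each of them, for Klrc1 14.1 to 37.8 and 36.8 to 63.2. The second, TRAV8D-1 with TRAJ37 and TRBV1 with TRBJ1-1, had 25 brain cells. Of these 64.0% had Klrc1, 60.0% Klrd1, 32.0% Klrk1, 28.0% Klrb1b and 12% Klrb1c, and Klrg1 was at 0.

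No Klrc1 UMI was found in some other large clones. The largest of the brain, TRAV13N-1 with TRAJ21 and TRBV13-3, had 67 cells, 63 of them Th1-like. Klrc1, Klrk1, Klrb1b and Klrb1c were at 0 there, with Klrd1 in 8.96% and Klrg1 in 20.9%. Klrc1 was likewise at 0 in a pair of TRAV9-1 TRAJ22 TRBV26 clones of 28 and 23 cells, which share their alpha CDR3 and were Th1-like in 23 and 22 cells, and Klrg1 was in 17.9% and 8.70% of them. A TRAV7D-2 TRBV20 clone of 47 cells, 23 of them Th17-like, had Klrc1 in 38.3%, Klrd1 in 34% and Klrb1b in 25.5%, with Klrg1 at 0. A TRAV14D-3-DV8 clone of 26 cells, 14 of them Th17-like, had Klrc1 in 26.9%. Klrc1 was thus found in some large brain clones and not in others. The exact intervals of the clones at 0 reach 5.36% (67 cells), 12.3% (28 cells) and 14.8% (23 cells), so that a low share remains possible there.

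The 188 clones found in both tissues had 565 brain and 410 spleen cells. Klrc1 was in 19.5% of the former and 21.2% of the latter, against 11.8% and 2.10% in cells of clones seen in 1 tissue. Klrk1 had 18.2% and 25.9% against 11.4% and 3.35%, and Klrg1 8.67% and 14.4% against 2.96% and 1.38%. Of the 17 clones with at least 3 cells in each tissue, the Klrc1 share was higher in the brain in 4, higher in the spleen in 5 and equal in 8, including 6 with 0 in both. Over the pooled cells of clones found in both tissues the brain and spleen shares of Klrc1 were close, unlike those over all cells. A single clone gave 30 of the 87 pooled spleen cells with Klrc1, and its shares were 24.6% and 50%. Over the 17 clones the median Klrc1 share was 0% in the brain and 33.3% in the spleen. The clones seen in the spleen only were 5404 clones of 5667 cells, so that the contrast with them is also one of clone size.

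The rule that chose the 6 genes did not name the other genes of Klrc1 cells. It did use helper state, which is read from some of the listed genes, such as Foxp3, Ifng and Il17a. The lists were also chosen with earlier results of these data known, so that the values are a description. Cells with a read invariant chain were left out. In the brain 539 cells with Klrc1 were set against 3273 without (medians of 11046 and 9600 UMIs). In the spleen 280 cells were set against 7048 (medians of 6987.5 and 7174 UMIs). Of these Klrc1 cells 127 in the brain and 70 in the spleen had no TRA read, and any invariant cells among them stayed in. Of 8468 genes in the brain 4.31% were higher in Klrc1 cells and 3.85% lower, and of 8791 in the spleen 12% were higher and 6.65% lower. The median log2 ratio over all genes was 0.01 and 0.07. Gene lists are given beside these shares. A gene that reached 10 CPM through the Klrc1 cells alone could be called higher but not lower. Examples are Csf1 in the brain (70.1 against 9.03 CPM) and Csf2 in the spleen (17.2 against 0.698 CPM). Genes that reached it through the other cells alone, such as Id3 in the brain, could be called lower but not higher. The list counts that follow are therefore descriptions and support nothing on their own.

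Family genes that reached 10 CPM in either group, 7 in the brain and 9 in the spleen without Klrc1 itself, were higher in Klrc1 cells, with median log2 ratios of 3.31 and 5.0. Several reached that minimum through the Klrc1 cells alone, and 4 of them in the brain and 5 in the spleen are among the 6 genes chosen, so that the count supports nothing. Klri2 was 85.3-fold higher in the brain and 89.8-fold in the spleen, Klrc2 33.1-fold and 112-fold, and Klre1 9.94-fold and 56.1-fold. Klrb1f was 5.58-fold higher in the spleen. Reads shared between the near copies Klrc1 and Klrc2 could add to the Klrc2 value. Of the adaptors and phosphatases, 1 of 10 was higher in the brain and 3 of 11 in the spleen. Ptpn6, the phosphatase SHP-1 that inhibitory receptors recruit, was 1.55-fold higher in the brain (127 against 82.0 CPM). In the spleen Tyrobp, the adaptor DAP12, was 16.9-fold higher, on 38 UMIs in 4 cells, Hcst, the adaptor DAP10, 1.71-fold and Inpp5d 1.5-fold. Of the ligand genes 1 of 9 was higher in the brain (Cdh1, E-cadherin, a Klrg1 ligand, at 19.1 against 7.12 CPM) and 2 of 8 in the spleen (Ulbp1 2.78-fold and Raet1e 1.82-fold, both NKG2D ligands).

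Among cytotoxic genes, 5 of 11 were higher and 1 lower in the brain, and 8 of 14 higher and 2 lower in the spleen. Gzma, granzyme A, had 97.5 CPM in Klrc1 cells of the brain against 10.1 without (9.69-fold), and 112 against 2.17 CPM in the spleen (51.5-fold). Few cells carried it, 18 of the 539 brain cells, with 281 of their 652 UMIs in 1 cell, and 16 of the 280 spleen cells. With the cell of most Gzma UMIs left out in each group, an alternative added after seeing the data, the brain values were 55.7 against 8.31 CPM. Nkg7, a granule protein, was 1.93-fold and 8.85-fold higher, and Ctsw, a protease of cytotoxic cells, 2.06-fold and 6.47-fold. Gzmk, granzyme K, was lower in the brain, with a ratio of 0.365. Granzyme A and K transcripts thus went in opposite directions with Klrc1 in the brain.

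Of the cytokines and chemokines 6 of 13 were higher and 3 lower in the brain, and 5 of 8 higher and 1 lower in the spleen. Csf1, the macrophage growth factor, was 7.76-fold higher in Klrc1 cells of the brain (70.1 against 9.03 CPM) and Lta 2.44-fold, while Il22 (0.183) and Ccl3 (0.296) were lower. The Ccl3 value rests on 1 cell without Klrc1, which held 352 of 616 UMIs. Without the top cell of each group Ccl3 had 3.29 against 8.01 CPM and was under the minimum level. The top Il22 cell held 168 of 620 UMIs, and Il22 then had 1.80 against 13.7 CPM. In the spleen Csf2, which encodes GM-CSF, was 24.6-fold higher (18 cells), Ccl4 14.4-fold (8 cells), Xcl1 14.7-fold (29 cells) and Ifng 5.93-fold. Cytokine receptors were higher in 1 of 13 in the brain, Il18rap, the accessory chain of the IL-18 receptor, at 2.15-fold, and Il23r was lower at 0.645. In the spleen 8 of 13 were higher and 1 lower, among them Il12rb2 (12.1-fold), Il18rap (9.23-fold), Il18r1 (4.29-fold) and Il1r1 (4.53-fold).

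Regulators, the transcription factors listed, were higher in 5 of 15 and lower in 4 in the brain, and higher in 8 and lower in 3 of 15 in the spleen. Zeb2, a factor of terminal effector cells, was 2.55-fold higher in the brain and 12.8-fold in the spleen. Id3 (0.174), Tcf7 (0.410) and Foxp3 (0.343) were lower in the brain, the first pair being factors of memory and follicular cells, and Foxp3 was at 0.0491 in the spleen. Zbtb16, the factor PLZF of invariant NKT cells, was 9.84-fold higher in the spleen. Among cells with another TRA chain only (210 against 6006 cells), Zbtb16 had 4.90 against 2.97 CPM and was no longer called, and Xcl1 was 4.28-fold higher, while Zeb2 was 17.2-fold higher. In that setting 1048 spleen genes were higher and 689 lower, against 1052 and 585 before.

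Residency genes were higher in 4 of 10 in the brain, and in the spleen 4 of 10 were higher and 1 lower. Itga1, the integrin CD49a, was 2.12-fold higher in the brain and 20.2-fold in the spleen. Cxcr6, a chemokine receptor of resident cells, was 1.98-fold and 11.7-fold higher, and Rbpj 1.96-fold and 2.30-fold. These values include Klrc1 cells with no TRA read. Invariant spleen cells had 47.5-fold more Itga1 and 16.9-fold more Cxcr6 than spleen cells with another alpha chain. Bhlhe40 was 1.94-fold higher in the brain and 9.17-fold in the spleen. Of the other activating and inhibitory receptors, 7 of 15 were higher and 1 lower in the brain, and 6 were higher and 6 lower in the spleen. Havcr2, the inhibitory receptor TIM-3, had 40.8 against 7.79 CPM in the brain (5.24-fold), Tnfrsf9 was 2.71-fold and Cd200r1 2.64-fold higher, and Slamf6 was lower (0.228). In the spleen Lilrb4b was 12.4-fold, Lilrb4a 7.45-fold and Slamf7 6.73-fold higher, and Ctla4 was lower (0.156).

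Markers of natural killer, CD8 and gamma-delta T cells were checked beside these values. Their 8 genes summed to 61.9 CPM in Klrc1 cells of the brain against 54.0 without, and to 97.4 against 36.2 CPM in the spleen, with 1 and 0 of them at 0. Ncr1, which marks natural killer cells, had 0 UMIs in the brain Klrc1 cells and 4 in those of the spleen. Cd8a was 4.22-fold higher (22 UMIs in 3 cells; 2.68-fold without the top cell of each group) and Itga2 3.13-fold higher in Klrc1 cells of the spleen. Among cells with another TRA chain only, Cd8a was 2.15-fold higher in the brain and 8.12-fold in the spleen. A Cd8a UMI was found in 1.2% of all brain Klrc1 cells and 0.647% of the spleen ones. Cd4 had a UMI in 89.7% of brain and 71.6% of spleen Klrc1 cells, and in 69.9% and 60.6% of Klrb1c cells. The part of these cells in the gene differences was not tested.

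**Figure D5:**
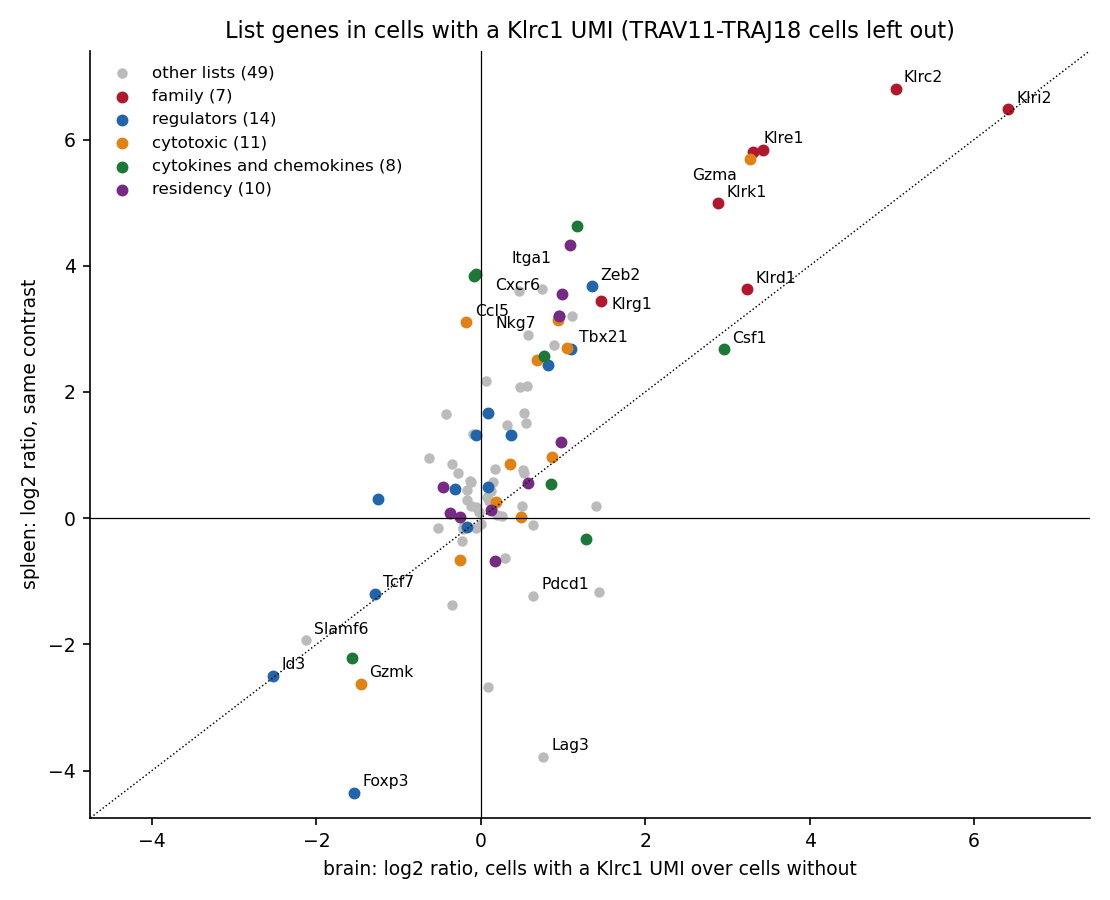
Ratio of Klrc1 cells to cells without Klrc1 (log2), invariant cells left out, in the brain (horizontal axis) and the spleen (vertical axis), for 98 listed genes measured in both tissues, coloured by list (Bhlhe40 is in 2 of them), with the dotted line marking equal ratios. Ratios were above 1 in both tissues for 54 genes, whether or not they passed the threshold. Among them were Gzma (9.69-fold and 51.5-fold) and Itga1 (2.12-fold and 20.2-fold). Klrc1 cells with no TRA read stayed in.

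Over 29 clusters of both tissues, the patterns of other genes were compared with each of the 6 by Pearson correlation of log2(CPM + 10) over 8831 genes. The clusters come from 2 libraries and share their depth, and the coefficients are descriptions. The genes nearest to Klrc1 were Klrk1 (0.915), Klrc2 (0.914) and F2r (0.903). Nearest to Klrd1 were Sema4a (0.872), Klre1 (0.849) and Klra3 (0.837), and nearest to Klrk1 were Klrc1, Snai3 (0.904) and Crot (0.879). For Klrb1b they were Sv2c (0.796), Gcnt2 (0.783) and AA467197 (0.749), for Klrb1c Aqp9 (0.911), Trip4 (0.856) and Klrc2 (0.852), and for Klrg1 Irx3 (0.905), Fcgr2b (0.903) and S1pr5 (0.897). Among the 6, Klrc1 and Klrd1 had 0.809, Klrc1 and Klrg1 0.462, Klrb1c and Klrg1 0.231, and the neighbours Klrb1b and Klrb1c 0.213.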

How the data were processed

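RNA and TCR libraries of sorted CD4+ T cells, 1 of each per tissue, were used. The authors deposited raw UMI counts of every gene in every barcode, and a list of receptor contigs with UMI counts and V, J and CDR3 calls. The submitters' processing notes name Cell Ranger 9.0.0. They also list GRCm39, GRCm38, mm39 and mm10 with no role, so that no coordinate was taken from the tables. The chemistry was Chromium GEM-X 5' v3, and 18718 brain and 38000 spleen cells were loaded, per the labels' protocols.

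Of 4277 brain and 8707 spleen barcodes (44386447 and 65191435 UMIs), 4143 and 8474 passed minima of 500 genes and 1000 UMIs and a maximum of 10% mitochondrial UMIs. Barcodes with more than 1 TRB or more than 2 TRA chains (179 and 315) were left out as doublets, which misses doublets with 1 recovered receptor. Barcodes with at least 3 of 6 B cell markers (4 and 168) or myeloid markers (25 and 2) were left out by a rule set after seeing the data. The shares given have exact Clopper-Pearson intervals, CPM exact Poisson intervals and ratios exact conditional binomial intervals (scipy 1.17.1). The rule for a difference was tested on simulated data.

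Clusters were made per tissue in scanpy 1.11.5 and igraph 0.11.9 (2000 variable genes without Klr, Klra and receptor genes, 30 components, 15 neighbours, Leiden resolution 0.8). A name needed at least 3 markers. Clones needed 1 TRB and at least 1 TRA chain.

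The 6 genes, the 10 gene lists, the marker lists and the tests were chosen with earlier results of these data known. Named genes were the 6, family genes of at least 1 CPM, up to 4 genes per other list with the interval bound farthest from 1, the 3 nearest by correlation among genes of at least 20 CPM in a cluster, and clones of at least 20 cells. Alternatives covered scaling (TMM of edgeR 4.0.16, size factors of DESeq2 1.42.0, in R 4.3.3), filters, thinning, minimum UMIs and CPM, clustering, chain rules and leaving out clones, shared barcodes or invariant cells.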

Additional observations from a re-analysis of the deposited data

Results flagged for a closer look

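Klrg1 differed in direction between the tissues in cells with the TRAV11-TRAJ18 alpha chain against cells with another alpha chain. The ratio was 1.77 in the brain, on 29 UMIs in 8 invariant cells, and 0.239 in the spleen, on 16 UMIs in 12 invariant cells. The difference between the tissues was not tested, as each has 1 library.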

How the results depend on the processing

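No value that passed the threshold changed direction under an alternative run. Among values under the threshold, the log2 ratio of brain over spleen turned from 0.87 to -1.98 for Klra7 and from -0.02 to 0.50 for Klrb1f without TRAV11-TRAJ18 cells, an alternative added for these family genes after seeing the data. That of Klrg1 turned from 0.17 to -0.03 among cells with another TRA chain only, and that of Klrb1b in invariant over other brain cells from -0.18 to 0.49 when thinned. The clone-size difference of Klrb1b in the spleen turned from 0.282 to -0.187 percentage points without the largest clone and to -0.115 with clones weighted equally. Of the values of the main comparisons 53 stayed within the limits set and 17 moved. Of the values of single genes 233 stayed, 66 moved and 2 were counted as turned (Klra7 and Klrb1f). The turns of Klrg1 and Klrb1b given above are not in that count of 2 but among the values that stayed or moved. Without TRAV11-TRAJ18 cells, 4 of the 6 genes were higher in the brain and 0 in the spleen, in place of 2 and 1, and the same 4 and 0 were found among cells with another TRA chain only, an alternative added after seeing the data. The share of Klrd1 in Klrc1 cells was 51.5% in the brain and 50.5% in the spleen when thinned, and in the spleen 46.0% with at least 2 UMIs and 51.8% without TRAV11-TRAJ18 cells. The largest part of the brain Klrc1 UMIs in 1 cluster was 65.9% at resolution 0.5, 37.1% at 1.2 and 39.2% with another seed. The difference in Klrc1 share between expanded and single clones was 15 percentage points in the brain, 11.5 when thinned, and 20.9 in the spleen, 10.3 with the largest clone left out and 11.8 with clones weighted equally. With no minimum CPM, 928 genes were higher and 845 lower in Klrc1 cells of the brain, and 894 lower in those of the spleen. With the cell of most UMIs left out in each group, an alternative added after seeing the data, Ccl3 in Klrc1 cells of the brain was no longer measured. Leaving out the largest clones moved the log2 ratio of Klrg1 between brain and spleen from 0.17 to 0.38. Klrb1b of invariant spleen cells was not called with 1 TRA chain only. No paired analysis was possible because each tissue has 1 library. At this depth Klrb1b in the spleen, at 123 UMIs in all, limits any statement about it there.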

Other observations

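Invariant cells with and without a Klrb1c UMI differed in the other receptors. In the brain (43 and 80 cells) Klrc1 had 334 against 82.2 CPM, Klrk1 386 against 135 CPM and Klrd1 173 against 98.2 CPM, and in the spleen (466 and 195 cells) the values were 239 against 59.5, 288 against 99.2 and 216 against 44.7 CPM. Klrg1 had 2.27 against 32.0 CPM in the brain and 3.75 against 1.65 CPM in the spleen. Tbx21, the Th1 factor T-bet, had 141 against 140 CPM in the brain and 214 against 171 CPM in the spleen. Ccr7 had 4.04 against 49.1 CPM and Slamf6 48.8 against 188 CPM in the spleen, where cells without Klrb1c thus carried more of both.

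The beta chain of the invariant cells made little difference to Klrb1c in the spleen. A Klrb1c UMI was found in 71.8% of 312 cells whose beta chain the contigs call TRBV12-2+TRBV13-2, in 67.7% of 93 cells with TRBV29, 68.6% of 86 with TRBV13-1, 73.7% of 76 with TRBV1 and 72.4% of 58 with TRBV13-3.

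Ly49 genes were found in a few invariant cells of the brain. Klra9 had 78 UMIs (59.3 CPM) in 7 of 123 cells from 6 clones, against 1 UMI in brain cells with another alpha chain, and 26 UMIs (4.93 CPM) in 4 of 661 spleen cells. Klra7 had 41 UMIs in 4 brain cells and 5 UMIs in 1 spleen cell, and Klra1 had 49 UMIs in 8 brain cells and 53 UMIs in 10 spleen cells. Klre1 was found in 16 brain cells (13.0%) and 55 spleen cells (8.32%). These counts were chosen after their values were seen.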
